A study of Mus musculus with 23 samples.

Results

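The hypoxia factors and their regulators were followed as 10 named genes, Hif1a, Epas1, Arnt, Egln1, Egln2, Egln3, Vhl, Hif1an, Vegfa and Bnip3, in RNA-seq counts of hippocampal microglia from female mice. The genes were picked by symbol for their place in the oxygen-sensing pathway by a rule that holds no measured value, though with earlier results of these data known, and all 10 were found among the 18876 genes of the count table. The study asked how knockdown of Slc11a2, which encodes the iron importer DMT1, in microglia bears on the APP/PS1 model of amyloid pathology. Every mouse carried both floxed Slc11a2 alleles and 1 Cx3cr1 Cre-ERT2 allele on a mixed 129S;C57BL/6J background, and was either hemizygous for APP/PS1 or a WT littermate. The Slc11a2KD mice were gavaged with 4 mg tamoxifen daily for 5 days when 5 to 6 months old and the control mice with 200 µL corn oil, and CD11b+ cells were isolated at 15 to 18 months. This gave 6 control WT, 6 control APP/PS1, 5 Slc11a2KD WT and 5 Slc11a2KD APP/PS1 samples. A further control APP/PS1 library, 0010, was left out because the study removed a sample of this group as an outlier. Here 0010 lay 2.16 SD from its group mean, itself included, on the first principal component.

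Limits of the model bear on every comparison here. Tamoxifen was given to the Slc11a2KD groups only, so exposure to tamoxifen and recombination cannot be told apart. The Cx3cr1 promoter drives Cre in microglia and in other macrophages. The counts cover all of Slc11a2, and its level was 35.1 ± 5.13 CPM (counts scaled for library size; SD, n = 6) in control WT and 34.2 ± 4.75 (n = 5) in Slc11a2KD WT samples. It was 43.2 ± 3.93 (n = 6) in control APP/PS1 and 56.5 ± 13.5 (n = 5) in Slc11a2KD APP/PS1 samples, and neither knockdown difference, -0.0361 on the log2 scale in WT and 0.39 in APP/PS1 animals, passed the edgeR test (adjusted p = 1 and 0.205). Recombination removes only part of the gene, so counts over the whole gene do not test the deletion. Library numbers 5 to 17 were all controls and 1 to 4 and 18 to 23 all Slc11a2KD, so library order and knockdown cannot be told apart. The libraries held 31128643 to 54872491 counts. The summed level of 9 measured microglial markers was 36223.1 to 41902.8 CPM in WT and 27376.5 to 34077.8 CPM in APP/PS1 samples, without overlap, and 4 of the 9 fell in APP/PS1 samples of the controls and 6 in those of the Slc11a2KD animals. Endothelial, border macrophage and pericyte markers, given beside Epas1, had lower median sums in APP/PS1 samples too. In controls 4 of 7 oligodendrocyte markers (median sum 1292 CPM in WT and 602 in APP/PS1 samples) and 4 of 6 neutrophil markers (143 and 52.9 CPM) fell as well. So did 9 of 11 choroid plexus markers, which summed to 1989 and 1025 CPM in the control WT libraries 0012 and 0015 and to at most 5.41 CPM in the other control samples, while 1 of 8 astrocyte markers, Gfap, rose. In Slc11a2KD animals 2 of 7 oligodendrocyte markers (median sum 2132 CPM in WT and 866 in APP/PS1 samples) and 1 of 6 neutrophil markers (106 and 69.6 CPM) fell. Choroid plexus markers summed to 10.6 to 806 CPM in Slc11a2KD WT and 2.30 to 495 CPM in Slc11a2KD APP/PS1 samples, and 0 of 11 passed there. Differences without 0012 and 0015 are given where they changed a call. The part of the oligodendrocyte, neutrophil and astrocyte markers in the members' differences was not tested.

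Hypoxia-inducible factors (HIFs) are pairs of an oxygen-regulated alpha subunit, HIF-1alpha (Hif1a) or HIF-2alpha (Epas1), and the constitutive partner ARNT. In oxygenated cells the prolyl hydroxylases PHD2 (Egln1), PHD1 (Egln2) and PHD3 (Egln3) mark the alpha subunits for VHL, which targets them for degradation, and the asparaginyl hydroxylase FIH (Hif1an) weakens their transactivation. These hydroxylases need iron, oxygen and 2-oxoglutarate, which is what ties the pathway to iron supply. Much of this control acts on protein, which mRNA counts do not measure.

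The 250 bases before the start of the annotated canonical transcript (GRCm39, GENCODE M39) are given for the 3 members that were higher in APP/PS1 in both the control and the Slc11a2KD animals, and for Vegfa, which encodes a classical HIF-driven growth factor. Capitals mark ACGTG and GCGTG on either strand, the letters at the core of hypoxia response elements.
Hif1a, chr12:73954320-73954569, plus strand: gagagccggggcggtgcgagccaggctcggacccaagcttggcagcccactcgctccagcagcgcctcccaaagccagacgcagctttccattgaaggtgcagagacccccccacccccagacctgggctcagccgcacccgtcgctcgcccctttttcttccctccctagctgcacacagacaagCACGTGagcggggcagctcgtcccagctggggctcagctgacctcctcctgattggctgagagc
Egln3, chr12:54250674-54250923, minus strand: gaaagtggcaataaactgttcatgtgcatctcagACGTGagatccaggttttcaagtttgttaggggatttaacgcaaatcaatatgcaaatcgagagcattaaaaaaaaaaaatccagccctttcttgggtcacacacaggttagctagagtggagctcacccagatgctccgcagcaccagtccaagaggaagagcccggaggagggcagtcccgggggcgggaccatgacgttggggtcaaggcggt
Bnip3, chr7:138511254-138511503, minus strand: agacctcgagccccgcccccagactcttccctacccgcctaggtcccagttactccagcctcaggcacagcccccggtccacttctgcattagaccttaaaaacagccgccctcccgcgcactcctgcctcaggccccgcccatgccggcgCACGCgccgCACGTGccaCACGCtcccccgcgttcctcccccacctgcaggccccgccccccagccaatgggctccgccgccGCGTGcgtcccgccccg
Vegfa, chr17:46343310-46343559, minus strand: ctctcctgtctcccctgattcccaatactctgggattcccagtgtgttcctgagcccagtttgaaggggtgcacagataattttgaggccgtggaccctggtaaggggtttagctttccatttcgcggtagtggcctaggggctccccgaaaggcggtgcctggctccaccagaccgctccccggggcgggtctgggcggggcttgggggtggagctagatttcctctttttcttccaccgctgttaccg

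The Bnip3 window held 2 ACGTG and 3 GCGTG matches, the Hif1a window 2 ACGTG matches (both strands of a single CACGTG) and the Egln3 window 1 ACGTG match, while the Vegfa window held neither. Among the other members, Arnt and Egln1 held ACGTG only, Epas1 GCGTG only, Egln2 both, and Vhl and Hif1an neither. One or the other was found in 50.5% of 14341 protein-coding genes of the table, ACGTG in 20.2% and GCGTG in 39.3%. A match is a description of letters and not of binding.

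Epas1 is the member whose transcript carries an iron-responsive element, the hairpin bound by iron regulatory proteins. A scan of the annotated 5′ UTRs for a CAGTGN loop (capitals) between 5 paired bases, with G-T pairs and 1 unpaired base on the 3′ side allowed, found it in Epas1 and in no other member.
Epas1 5′ UTR, chr17:87061202-87061219, plus strand: cctcggCAGTGTcctgag
The same pattern occurred in 36 of 14341 5′ UTRs, or 0.251%. No measure of translation was made in these samples.

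Of the 10 members, 6 passed the test between APP/PS1 and WT in control animals (edgeR quasi-likelihood test, Benjamini-Hochberg adjusted p under 0.05). Hif1a, Egln1, Egln3, Vegfa and Bnip3 rose and Epas1 fell. Over all 18759 tested genes, 10.5% passed, 5.99% higher and 4.48% lower. In Slc11a2KD animals 5 members passed between APP/PS1 and WT, with Hif1a, Egln3 and Bnip3 higher and Epas1 and Arnt lower, against 16.2% of all genes, 9.77% higher and 6.41% lower. The values of WT and APP/PS1 samples did not overlap for 6 members in controls, Hif1a, Epas1, Egln1, Egln3, Vhl and Bnip3 (8.36% of all genes), and for 2, Hif1a and Egln3, in Slc11a2KD animals (7.06% of all genes).

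**Figure D1:**
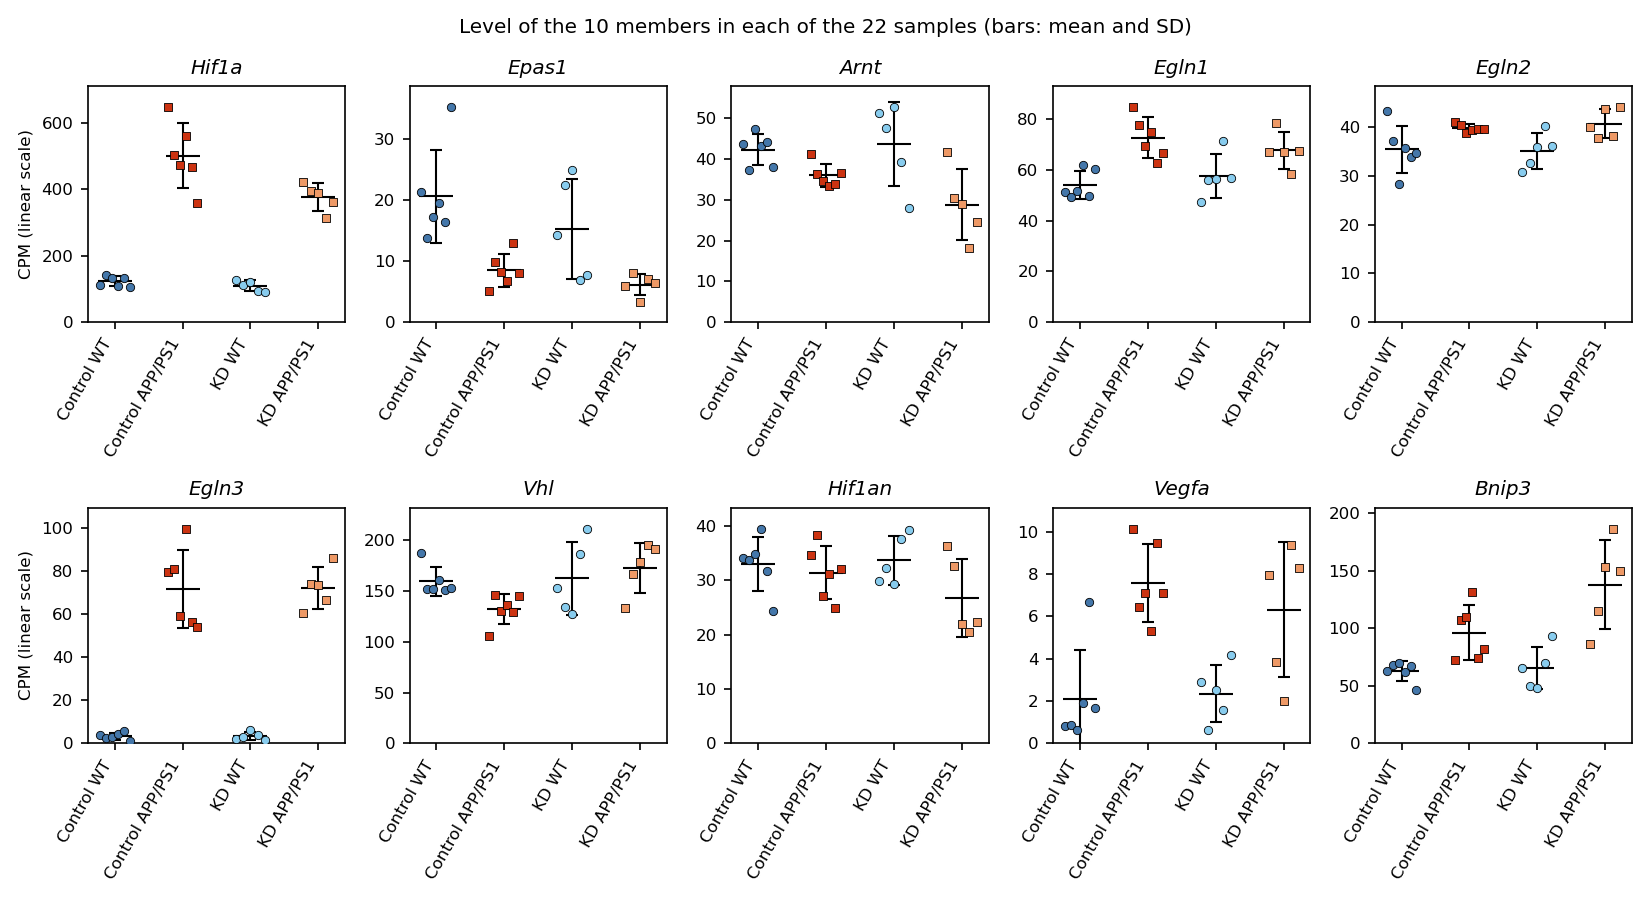
Level of each member in CPM (linear axis from 0) in each of 22 samples, by group, with the mean and SD as bars. The WT and APP/PS1 samples of Hif1a and Egln3 lie apart in both pairs of groups, and single samples stand out for Vegfa (control WT 0014, at 6.69 CPM) and Epas1 (control WT 0015, at 35.2 CPM).

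Among the 3 HIF subunits of the set, Hif1a, Epas1 and Arnt, Hif1a (chr12:73948149-73996321, plus strand) had the highest level per kilobase of exon and was the one that rose. In control WT samples its level ran from 105 CPM through a median of 122 to 142, and in control APP/PS1 samples from 359 through 488 to 647. In Slc11a2KD WT samples it was 127, 111, 122, 94.9 and 90.9 CPM, and in Slc11a2KD APP/PS1 samples 421, 396, 390, 313 and 361. Every APP/PS1 sample was above every WT sample.

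The log2 fold change of Hif1a between APP/PS1 and WT was 2.04 (SE 0.131, adjusted p = 4.66e-10) in controls, a 4.11-fold rise, and 1.78 (SE 0.142, adjusted p = 1.88e-08) in Slc11a2KD animals, a 3.44-fold rise (both edgeR). By p it ranked 3 of all 18759 genes tested in controls. The removed library 0010 held 287 CPM, below the other control APP/PS1 samples and above all WT samples. An antisense RNA, Gm15283, shares 695 bases of exon with Hif1a and is counted as a gene of its own. How reads were assigned by strand is not given in the sources used here, so how reads of the shared bases were counted is not known.

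Epas1 (chr17:87061087-87140838, plus strand) moved the other way. Its level ran from 13.8 CPM through a median of 18.4 to 35.2 in control WT and from 5.03 through 8.15 to 13.02 in control APP/PS1 samples, with no overlap. In Slc11a2KD WT samples it was 14.2, 22.5 and 24.9 CPM in libraries 0001, 0002 and 0003, and 6.95 and 7.77 in 0019 and 0022. In Slc11a2KD APP/PS1 samples it was 5.97, 8.01, 3.32, 7.03 and 6.40 CPM, so the last 2 of the WT libraries lay within the APP/PS1 range. The log2 fold change was -1.28 (SE 0.308, adjusted p = 0.00742) in controls and -1.31 (SE 0.339, adjusted p = 0.0100) in Slc11a2KD animals (edgeR). Within libraries 18 to 23, which held 2 WT and 4 APP/PS1 samples, the difference in Slc11a2KD animals was -0.26 (adjusted p = 0.875). That call was also lost with only the compared groups fitted (-1.28, adjusted p = 0.0629) and with a term for libraries 18 to 23 (-0.76, adjusted p = 0.220). Without libraries 0012 and 0015, which held choroid plexus transcripts, that in controls was -1.02 (adjusted p = 0.0621).

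Transcripts of endothelial cells, in which Epas1 is well known to be expressed, moved with Epas1 in most samples. The summed level of the 10 endothelial markers had a median of 291 CPM (range 204 to 449) in control WT and 150 CPM (126 to 177) in control APP/PS1 samples. It was 242 CPM (184 to 418) in Slc11a2KD WT and 181 CPM (113 to 201) in Slc11a2KD APP/PS1 samples. No marker of the list was at 0 in any sample. In control APP/PS1 samples 6 of the 10 markers fell, Flt1 rose and 3 did not pass. With the mean endothelial marker level as a term, the Epas1 difference was -0.25 (adjusted p = 0.845) in controls and -0.15 (adjusted p = 0.894) in Slc11a2KD animals (edgeR). The marker level itself differed between WT and APP/PS1 samples, so the term and the genotype share part of the spread. The 8 pericyte and smooth muscle markers (median 67.7 against 28.5 CPM) and the 7 border macrophage markers (704 against 279.98 CPM) also had lower medians in control APP/PS1 than in control WT samples. Of these, 2 pericyte and 6 border macrophage markers fell, Myh11 was at 0 in 5 samples, Lyve1 in 2 and Kcnj8 in 1, and their part in the result was not tested. The 3 genes whose log2 CPM most resembled that of Epas1 over the 22 samples were Sema3g (Pearson r = 0.904), Tie1 (0.870) and Abcb1a (0.867), which is itself on the endothelial list. Centred on group means these correlations were 0.782, 0.726 and 0.731. In bulk RNA, fewer cells of a type and less RNA per cell cannot be told apart.

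**Figure D2:**
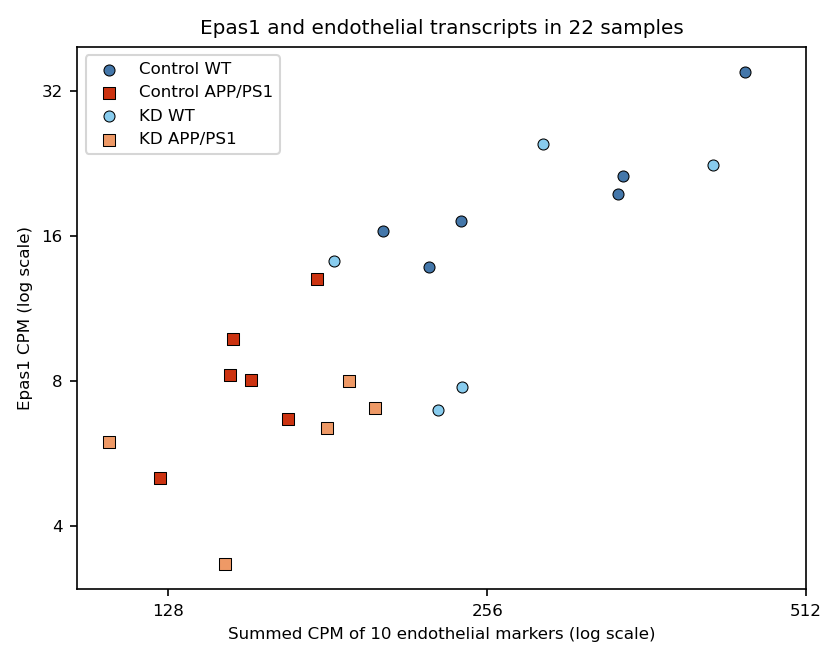
Epas1 level against the summed level of 10 endothelial markers, both in CPM on log axes, 1 point per sample (n = 22). Most samples with more endothelial transcripts had more Epas1, but the Slc11a2KD WT libraries 0019 and 0022 held 6.95 and 7.77 CPM of Epas1 at endothelial sums of 230 and 242 CPM.

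Arnt (chr3:95341365-95404551, plus strand) was 42.3 ± 3.83 CPM (SD, n = 6) in control WT and 36.0 ± 2.86 (n = 6) in control APP/PS1 samples, a log2 difference of -0.23 (SE 0.161) that did not pass the edgeR test (adjusted p = 0.428). In Slc11a2KD WT samples it was 51.4, 47.6, 52.7, 39.2 and 27.9 CPM and in Slc11a2KD APP/PS1 samples 41.8, 30.5, 29.0, 18.2 and 24.4 CPM. These groups overlapped, and the log2 fold change was -0.60 (SE 0.177, adjusted p = 0.0214, edgeR). This call was lost when library 0001, 0002, 0003, 0021 or 0023 was left out (adjusted p up to 0.0686), with only the compared groups fitted (-0.57, adjusted p = 0.165), with a term for libraries 18 to 23 (-0.35, adjusted p = 0.117), within libraries 18 to 23 (-0.40, adjusted p = 0.591) and with the endothelial term (-0.52, adjusted p = 0.322).

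Levels per kilobase of exon were taken over the pooled exons of all annotated transcripts. These exceed the exons of the canonical transcript unevenly, at 7795 against 2132 bases for Egln2, 9346 against 4706 for Arnt and 2689 for both in Egln3. The order of members below depends on this choice of length, and another length was not tested. Hif1a stood at 14.6 ± 1.81 CPM per kb (SD, n = 6) in control WT and 60.1 ± 11.6 (n = 6) in control APP/PS1 samples. Epas1 stood at 3.64 ± 1.35 and 1.499 ± 0.486 and Arnt at 4.52 ± 0.410 and 3.85 ± 0.306 CPM per kb in the same groups. Vhl was the highest member per kb in both WT groups, at 38.1 ± 3.37 in control WT, and Hif1a the highest in both APP/PS1 groups. In Slc11a2KD APP/PS1 samples, though, Hif1a (45.1 ± 4.96) and Vhl (41.4 ± 5.89) were level within their SD. In control WT samples, Hif1a (14.6) and Bnip3 (14.5 ± 1.96) followed Vhl and were level within their SD. By pooled exon length, Egln1 (6.04 ± 0.619), Egln2 (4.56 ± 0.619), Arnt, Epas1, Hif1an (2.91 ± 0.434), Egln3 (1.27 ± 0.587) and Vegfa (0.489 ± 0.536) came next in that order. Of neighbours in this order, Egln2 and Arnt, Arnt and Epas1, and Epas1 and Hif1an differed by less than the larger of their SDs. In control APP/PS1 samples Egln3 had moved to the third place, at 26.6 ± 6.72 CPM per kb, between Vhl at 31.6 ± 3.54 and Bnip3 at 22.3 ± 5.47. Both gaps were smaller than the SD of Egln3.

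Of the 3 prolyl hydroxylases, Egln3 changed most. Egln3 (chr12:54225767-54250673, minus strand) encodes PHD3, itself a known HIF target. It ran from 1.12 CPM through a median of 3.56 to 5.65 in control WT and from 54.0 through 69.4 to 99.5 in control APP/PS1 samples. It was 2.00, 3.13, 6.40, 3.73 and 1.66 CPM in Slc11a2KD WT and 60.6, 74.1, 73.4, 66.6 and 86.2 CPM in Slc11a2KD APP/PS1 samples. No APP/PS1 sample overlapped a WT sample, and the fitted level was 20.9-fold higher in controls (log2 fold change 4.38, SE 0.334, adjusted p = 4.10e-09) and 21.3-fold higher in Slc11a2KD animals (4.42, SE 0.366, adjusted p = 2.60e-08; edgeR). In WT samples the level rested on 38 to 254 counts a library, and in APP/PS1 samples on 2227 to 4552. Library 0010 held 57.4 CPM. The genes most like Egln3 over the samples were Igf1 (r = 0.976), Cd68 (0.973) and Soat1 (0.972), correlations that hold the difference between the groups. Centred on group means they were 0.547, 0.662 and 0.6248.

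Egln1 (chr8:125635308-125676865, minus strand), which encodes PHD2, the main oxygen sensor of most cells, ran from 49.4 CPM through 51.5 to 61.8 in control WT and from 62.5 through 72.2 to 84.6 in control APP/PS1 samples. The groups did not overlap and the rise was 0.43 on the log2 scale (SE 0.108, adjusted p = 0.0109, edgeR). With library 0010 kept, at 47.8 CPM, the difference was 0.36 (adjusted p = 0.0573), and with the endothelial term it was 0.45 (adjusted p = 0.138). In Slc11a2KD animals the difference was 0.24 (SE 0.118, adjusted p = 0.173), with 47.2, 55.9, 56.5, 71.2 and 56.8 CPM in WT and 66.9, 78.6, 66.9, 58.6 and 67.4 CPM in APP/PS1 samples.

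Egln2 (chr7:26853588-26866408, minus strand), which encodes PHD1, was nearly level, from 35.2 ± 3.64 CPM (SD, n = 5) in Slc11a2KD WT to 40.8 ± 2.96 (n = 5) in Slc11a2KD APP/PS1 samples. Its log2 differences of 0.17 (SE 0.0988) in controls and 0.21 (SE 0.108) in Slc11a2KD animals did not pass the edgeR test. Its exons share 1620 bases with Cyp2t4 on the opposite strand.

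Of the remaining regulators, neither Vhl nor the asparaginyl hydroxylase gene Hif1an passed in any comparison of the main edgeR fit. Vhl (chr6:113600920-113608599, plus strand), the substrate receptor of the ubiquitin ligase that binds hydroxylated alpha subunits, ran from 150 CPM through 152 to 187 in control WT and from 106 through 133 to 146 in control APP/PS1 samples. These samples did not overlap (exact two-sided permutation p = 0.00216, the smallest 6 against 6 samples can give). The difference of -0.27 (SE 0.123) had an adjusted p of 0.178 in the edgeR fit over all genes and 0.0431 with limma voom (-0.28), which weights each library by its quality, and it passed with a term for libraries 18 to 23 (-0.27, adjusted p = 0.0366). In Slc11a2KD animals it was 0.0918 (SE 0.135; 0.0158 to 0.21 with 1 sample left out), with 152, 134, 127, 186 and 211 CPM in WT and 133, 167, 178, 195 and 190 CPM in APP/PS1 samples. Hif1an (chr19:44551286-44568723, plus strand) ranged from 26.7 ± 7.17 CPM (SD, n = 5) in Slc11a2KD APP/PS1 to 33.6 ± 4.50 (n = 5) in Slc11a2KD WT samples, and its differences were -0.0751 (SE 0.152) in controls and -0.33 (SE 0.166) in Slc11a2KD animals. Without library 0004 the latter passed (-0.47, adjusted p = 0.0373).

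Both effector genes rose in APP/PS1 controls. Vegfa (chr17:46327919-46343309, minus strand), which encodes the angiogenic growth factor VEGF-A, was low throughout. It ran from 0.644 CPM through 1.27 to 6.69 in control WT and from 5.30 through 7.11 to 10.1 in control APP/PS1 samples. Only library 0014 of the control WT samples was above 1.91 CPM. The log2 fold change was 1.84 (SE 0.515, adjusted p = 0.0212, edgeR; exact two-sided permutation p = 0.00649, n = 6 and 6), and without 0014 it was 2.67 (adjusted p = 0.000315). Without library 0006 or 0008 the call was lost, with an adjusted p of up to 0.0511. Slc11a2KD WT samples held 2.88, 0.622, 2.52, 1.59 and 4.18 CPM and Slc11a2KD APP/PS1 samples 7.97, 3.85, 2.02, 9.39 and 8.29 CPM. That difference of 1.42 (SE 0.558) did not pass the edgeR test (adjusted p = 0.0844), and passed with DESeq2 (adjusted p = 0.0334) and, in edgeR, without library 0022 (1.73, adjusted p = 0.0397). Without libraries 0012 and 0015 the control difference was 1.74 (adjusted p = 0.0989), and with the endothelial term 0.80 (adjusted p = 0.647).

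Bnip3 (chr7:138490690-138511253, minus strand) encodes a mitophagy receptor of the outer mitochondrial membrane. It ran from 46.8 CPM through 65.1 to 70.1 in control WT and from 72.9 through 94.7 to 131 in control APP/PS1 samples, without overlap. It was 65.8, 50.01, 48.0, 69.5 and 93.0 CPM in Slc11a2KD WT and 86.2, 115, 153, 186 and 150 CPM in Slc11a2KD APP/PS1 samples, where only libraries 0022 and 0004 crossed. The log2 fold change was 0.62 (SE 0.187, adjusted p = 0.0347) in controls and 1.08 (SE 0.207, adjusted p = 0.000996) in Slc11a2KD animals (edgeR). The control call was lost when library 0006, 0007, 0011, 0012, 0013 or 0015 was left out (6 of the 12, adjusted p up to 0.104), with DESeq2 size factors (0.58, adjusted p = 0.0574), with upper-quartile scaling (0.57, adjusted p = 0.0824), without libraries 0012 and 0015 (0.52, adjusted p = 0.164) and with the endothelial term (0.30, adjusted p = 0.696). The Slc11a2KD call was lost within libraries 18 to 23 (0.88, adjusted p = 0.105) and with the endothelial term (0.75, adjusted p = 0.159). An antisense RNA, Gm45507, shares 504 bases of exon with Bnip3.

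**Figure D3:**
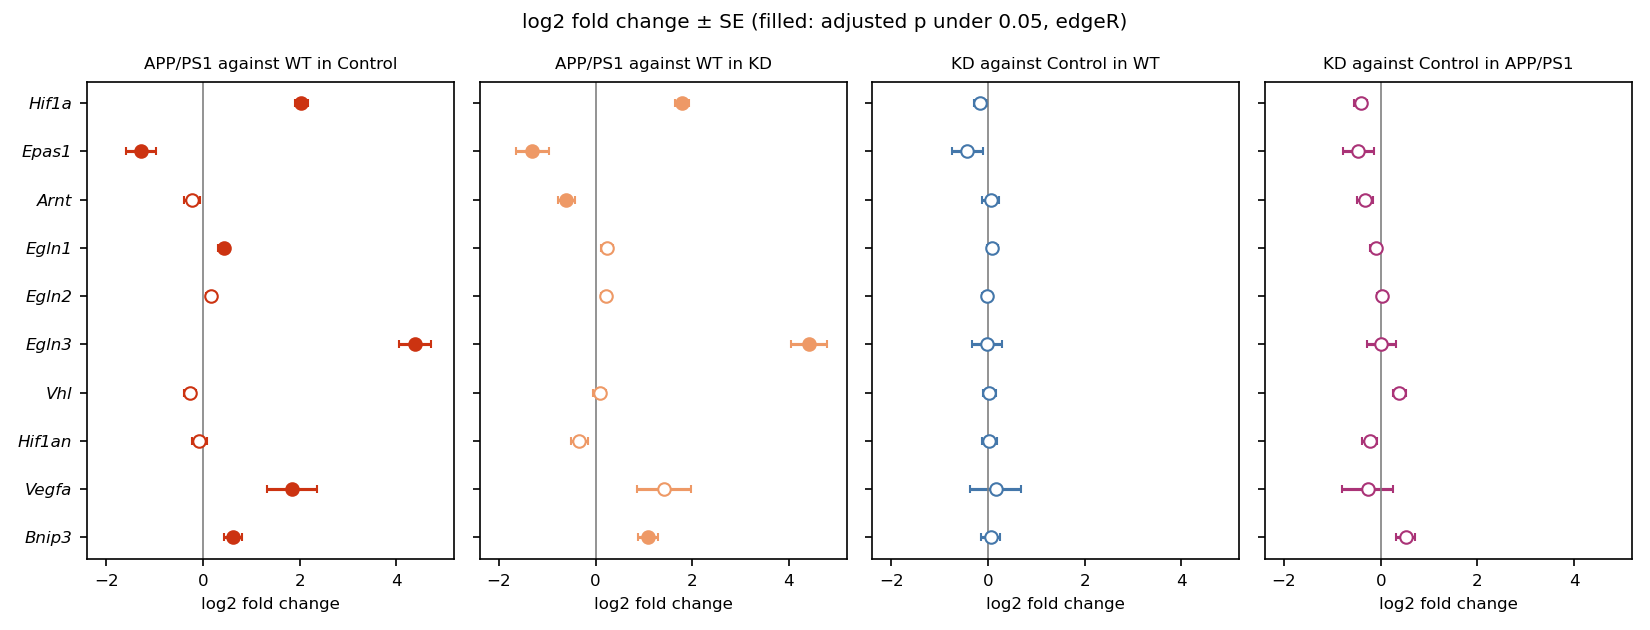
log2 fold change of each member with its SE in 4 comparisons of the edgeR fit; filled points passed at an adjusted p under 0.05. Egln3 and Hif1a lie far to the right in both APP/PS1 comparisons, at 4.38 and 2.04 in controls, and no point is filled in either comparison of Slc11a2KD with control.

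The wider set of HIF-responsive genes was read from fixed lists. Of 20 genes of glucose uptake and glycolysis, 12 rose and 1 fell in control APP/PS1 samples, against 5.99% of all genes higher and 4.48% lower. The median log2 difference of the list was 0.65 against -0.0223 over all genes. The largest rises were those of Tpi1 (triosephosphate isomerase; 1.57, SE 0.144), Slc16a3 (the lactate exporter MCT4; 1.501, SE 0.173) and Pgk1 (phosphoglycerate kinase; 1.37, SE 0.189), and Pfkfb4 fell by 0.36. In Slc11a2KD animals 11 of the 20 rose and none fell, against 9.77% of all genes higher and 6.41% lower (median 0.57 against -0.0673 over all genes), led by Pgk1 (1.695), Tpi1 (1.55) and Slc16a3 (1.525).

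Of 36 tested HIF target genes outside glycolysis, 10 rose and 2 fell in control APP/PS1 samples (median 0.19), so that 33.3% passed against 10.5% of all genes. Lox, which encodes the collagen cross-linking lysyl oxidase, went from 1.70 CPM in control WT to 53.95 in control APP/PS1 samples (log2 fold change 4.97, SE 0.413). Bhlhe40, a transcriptional repressor, rose by 2.36 (SE 0.339) and the chemokine receptor gene Cxcr4 by 2.20 (SE 0.325). Plod1, a lysyl hydroxylase gene, fell by 0.52. Car12 also passed lower, from 5.74 ± 10.6 CPM (SD, n = 6) to 0.0299 ± 0.0476, a carbonic anhydrase gene whose control WT mean sits with choroid plexus marker sums of 1.09 to 1989 CPM in the same samples; the part of such transcripts was not tested. In Slc11a2KD animals 9 of the 36 rose and 3 fell (median 0.11; 33.3% passed against 16.2% of all genes), with Lox at 4.23, Bhlhe40 at 2.79 and Cxcr4 at 2.58, and with Kdm3a, Plod1 and Tfrc lower.

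The shares of the smaller lists were set against the 10.5% of all genes that passed in controls and the 16.2% in Slc11a2KD animals. The lists share genes and are not independent. Flt1, Vegfb, Plod1 and Kdm3a, among others, also count with the HIF targets outside glycolysis, and Flt1 is on the endothelial list as well. Among 25 partners and regulators of HIF, Arnt2, the paralogue of Arnt, rose from 2.11 to 20.8 CPM in controls (3.30, SE 0.425), Pkm rose by 1.31 and Siah1a, a ubiquitin ligase gene that acts on prolyl hydroxylases, fell by 0.74, so 12% of the list passed against 10.5%. In Slc11a2KD animals 5 rose and 2 fell (28% against 16.2%). Arnt2 was at 2.55, Pkm at 1.17, Elob, a subunit of the VHL complex, at 1.01, Rack1 at 0.88 and Rbx1 at 0.65. Ireb2 and Nfkb1 were lower. Of the 8 other VEGF ligand and receptor genes tested, 4 rose in controls (Nrp2 by 1.26, Flt1 by 1.23, Nrp1 by 1.20 and Vegfb by 0.40; 50% against 10.5%), and Vegfb alone passed in Slc11a2KD animals, at 0.30 (12.5% against 16.2%). Of 16 tested mitophagy genes, 8 rose in controls (50% against 10.5%) and 9 in Slc11a2KD animals (56.2% against 16.2%), and none fell. The largest rises were those of Bcl2 (1.46), Map1lc3a (0.63) and Gabarap (0.57) in controls, and of Optn (2.46, at a mean of 1.83 CPM), Bcl2 (1.35) and Map1lc3a (0.93) in Slc11a2KD animals. Of 29 other iron and 2-oxoglutarate dependent dioxygenase genes, Alkbh5 rose and Plod1 fell in controls, 6.90% of the list against 10.5%. In Slc11a2KD animals 6 of the 29 fell (20.7% against 16.2%), Kdm5b (-1.14), Kdm3a (-0.85) and Kdm5a (-0.82) the most.

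**Figure D4:**
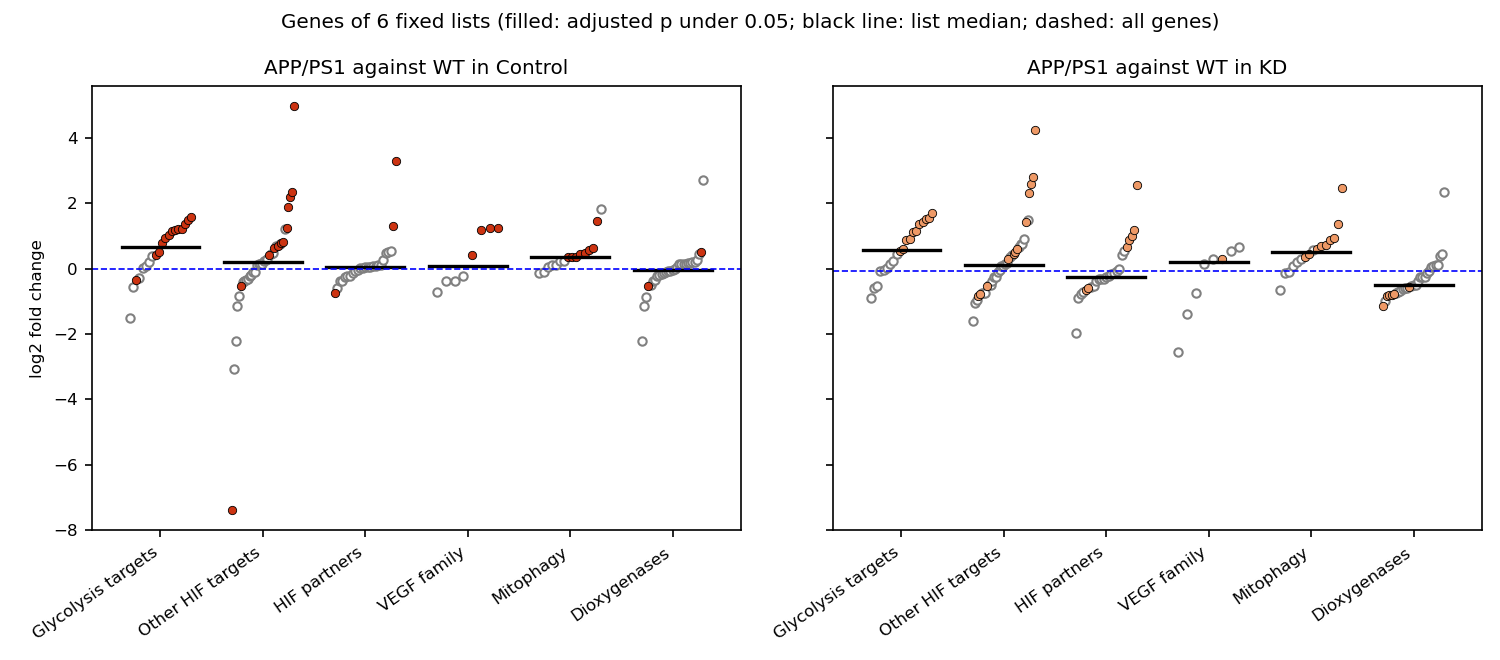
log2 fold change of each tested gene of 6 lists between APP/PS1 and WT samples, in control animals on the left and Slc11a2KD animals on the right; filled points passed at an adjusted p under 0.05, black lines are list medians and the dashed line the median of all genes. The glycolysis list stands highest in controls, with a median of 0.65, and the dioxygenase list lowest in Slc11a2KD animals, with -0.49.

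The knockdown itself was compared within each genotype. No member passed in WT animals (0% of all genes passed; at an unadjusted p under 0.05, 0 members and 5.92% of all genes, edgeR), and none in APP/PS1 animals (0% of all genes). At an unadjusted p under 0.05 the latter held 3 members, Hif1a, Vhl and Bnip3, against 20.6% of all genes. With DESeq2, 2 members passed in APP/PS1 animals, Hif1a and Vhl, both at an adjusted p of 0.0495, beside 580 (12.7%) of the 4575 genes to which DESeq2 gave an adjusted p. With limma voom none did. In WT animals 0 members passed with DESeq2 (0.0535% of all genes) and 0 with limma voom. None of the genes of the 6 lists passed in either comparison. The difference between the APP/PS1 effects in Slc11a2KD and control animals was itself tested, and no member passed (0% of all genes; at an unadjusted p under 0.05, 0 members and 9.08% of all genes).

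In APP/PS1 animals Hif1a differed between Slc11a2KD and control samples by -0.42 on the log2 scale (SE 0.133, adjusted p = 0.205), Vhl by 0.39 (SE 0.129, adjusted p = 0.205) and Bnip3 by 0.52 (SE 0.195, adjusted p = 0.205; edgeR). Egln3 differed by 0.0117 (SE 0.301) and Vegfa by -0.27 (SE 0.523; -0.47 to -0.0521 with 1 sample left out, -0.83 with limma voom), and neither passed. Leaving out library 0004 changed these calls. Without it 4 members passed, Hif1a (-0.46, adjusted p = 0.0325), Arnt (-0.50, adjusted p = 0.0377), Vhl (0.47, adjusted p = 0.0218) and Bnip3 (0.65, adjusted p = 0.0264), together with 3069 of all genes (16.4%). The 4 Slc11a2KD APP/PS1 libraries that then remain, 0018, 0020, 0021 and 0023, also held choroid plexus transcripts. Their 11 choroid plexus markers summed to 282, 345, 90.2 and 495 CPM, against 2.30 in 0004 and 1.30 to 5.41 in the control APP/PS1 samples. With the mean level of these markers as a term over all 22 samples, Hif1a was at -0.28, Arnt at -0.17, Vhl at 0.25 and Bnip3 at 0.42, and none passed; their part in the calls without 0004 was not tested. In library 0004 alone, set against the same controls, the differences were -0.27 for Hif1a, 0.20 for Arnt, -0.0035 for Vhl and -0.18 for Bnip3.

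A property of the libraries moved with Arnt, Vhl and Bnip3. The mean log2 CPM of the 2968 longest genes (at least 9231 bases of exon) minus that of the 2968 shortest (at most 3893) was 0.388 to 0.715 in control WT and 0.261 to 0.790 in control APP/PS1 samples. In libraries 0001 to 0004 it was 0.657, 0.868, 0.945 and 0.624. In the Slc11a2KD libraries 0018 to 0023 it was lower, at 0.0946, 0.174, -0.189, -0.678, -0.288 and -0.612, and in library 0010 it was -0.500. Over the 22 samples it correlated with Arnt at r = 0.911, Vhl at -0.715 and Bnip3 at -0.770, and, centred on group means, at 0.889, -0.849 and -0.699. For Hif1a these were -0.210 and 0.663, and for Egln3 -0.346 and 0.240. Library 0010 held 23.6 CPM of Arnt, 216 of Vhl and 172 of Bnip3, outside the ranges of the other control APP/PS1 samples.

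With this score as a term, chosen after seeing the data, the difference between Slc11a2KD and control APP/PS1 samples was 0.0315 for Arnt, 0.0997 for Vhl, 0.0873 for Bnip3 and -0.18 for Hif1a, and none passed (edgeR). Between APP/PS1 and WT in Slc11a2KD animals, Arnt was at -0.19 (adjusted p = 0.337), Epas1 at -0.95 (adjusted p = 0.188) and Bnip3 at 0.66 (adjusted p = 0.0149), and Hif1a and Egln3 were at 2.03 and 4.68, so 3 members passed against 9.72% of all genes. In controls 7 members passed, the same 6 and Vhl (-0.33, adjusted p = 0.00209), against 19.6% of all genes. The count of dioxygenase genes that fell in Slc11a2KD APP/PS1 samples went from 6 to 1, while that of glycolysis genes that rose went from 11 to 10 and that of VEGF ligand and receptor genes from 1 to 4. In controls the count of HIF partners went from 2 higher and 1 lower to 6 and 2, and in Slc11a2KD animals from 5 and 2 to 4 and 1. Mitophagy genes went from 8 higher and 0 lower to 10 and 1 in controls, and from 9 higher to 7 in Slc11a2KD animals. HIF targets outside glycolysis went from 10 higher and 2 lower to 13 and 3 in controls. In Slc11a2KD animals they went from 9 and 3 to 11 and 1. The cause of the score's spread was not tested.

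**Figure D5:**
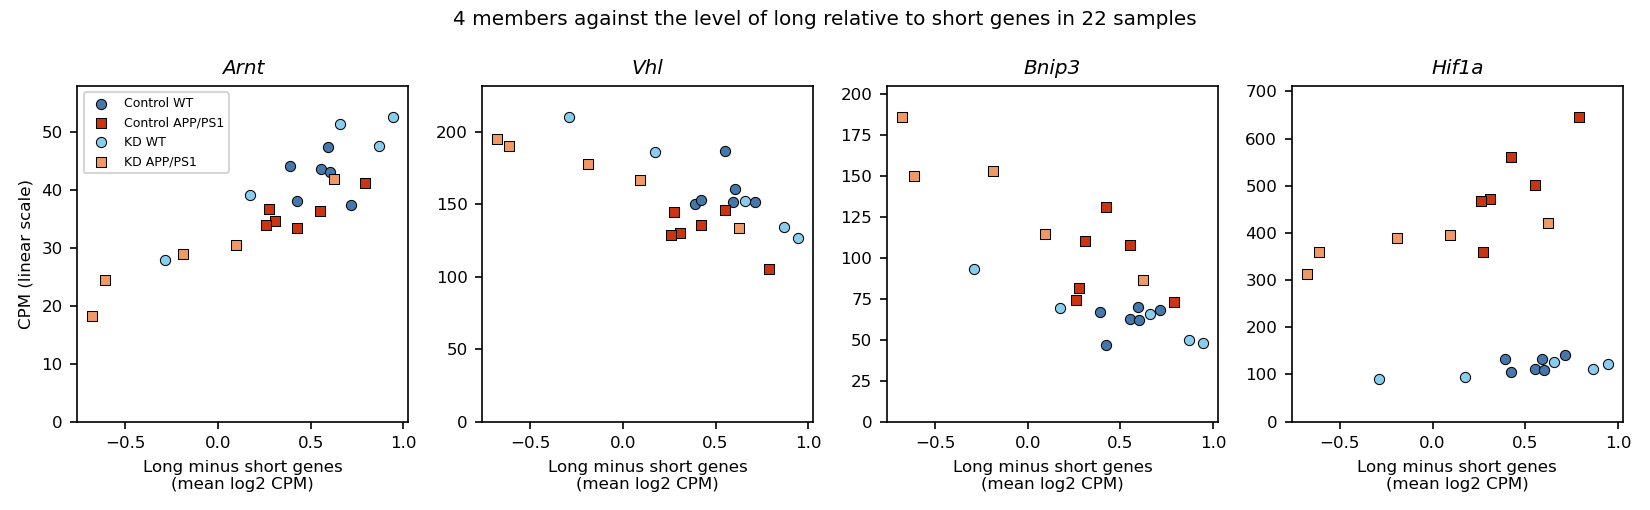
Level of 4 members in CPM (linear axis from 0) against the mean log2 CPM of long minus short genes, 1 point per sample (n = 22). Arnt climbs and Vhl and Bnip3 decline along the axis, whereas the Hif1a values of WT and APP/PS1 samples stay apart. WT samples span -0.288 to 0.945 on the axis and APP/PS1 samples -0.678 to 0.790.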

How the data were processed

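Per the labels, paired-end poly(A) libraries of RNA from CD11b+ hippocampal cells were trimmed with Trim Galore 0.6.7 and aligned with STAR to mm39; the authors deposited raw counts per gene and a second table of DESeq2-normalized counts (a depth-scaled signal, the raw counts divided by 1 factor per sample), of which the raw counts were used. The filter asked for 5 or more counts in 3 or more samples, which 18759 of 18876 genes met. The main test was edgeR 4.0.16 (quasi-likelihood, TMM scaling, all 4 groups in 1 fit of 22 samples, two-sided, Benjamini-Hochberg over all tested genes, threshold 0.05), in R 4.3.3. CPM use the same scaling, and correlations use log2 CPM with a prior count of 2. DESeq2 1.42.0 and limma 3.58.1 (voom with a quality weight per sample, called limma voom) were alternatives, beside other scalings, filters, samples and terms. On simulated counts for APP/PS1 against WT in control animals (17827 genes, 200 of them changed by 1.5 on the log2 scale), edgeR found 160 and called 3 unchanged genes. In the same simulation limma voom found 153 (4 unchanged genes called), and DESeq2 found 172 and called 33 unchanged genes. The counts were drawn once, with the spread that edgeR estimated and with no difference between libraries beyond depth. Slc11a2KD against control was not simulated, so these counts cannot judge the calls of any method there.

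The labels name separate mice's samples by library number only, so p-values measure the spread between these samples. No 2 samples were duplicates (highest correlation of log2 CPM 0.974). Positions, exon lengths (union of exons) and sequences come from GRCm39 with GENCODE M39; 18731 genes matched by identifier. The study counted on GENCODE M31. All 10 members are named. From other lists at most 3 genes in each direction are named per comparison, those with the largest change past the threshold and a mean of at least 1 CPM, beside the members of counts of 5 or fewer. The 3 genes most like a member were taken by Pearson r among genes with at least 1 CPM. The members and lists were chosen with earlier results of these data known. Depth limits low genes such as Vegfa, with 23 to 497 counts a library.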

Additional observations from a re-analysis of the deposited data

Results flagged for a closer look

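In 3 of 40 sets of 1 member in 1 group, a single sample lay far from the rest of its group on the log2 scale; chance alone gives about 1 in 20. The control WT library 0006 held 187 CPM of Vhl, against 150 to 161 CPM in the other control WT samples. The control APP/PS1 library 0005 held 106 CPM of Vhl, against 129 to 146 CPM in the others. The control WT library 0015, one of those with choroid plexus transcripts, held 46.8 CPM of Bnip3, against 61.9 to 70.1 CPM in the others.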

How the results depend on the processing

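No paired analysis was possible because each library number occurs once, so the groups share no replicate number. The settings with Slc11a2KD libraries 18 to 23 only, with libraries 1 to 4 only and with the long-gene term were chosen after seeing the data. Libraries 1 to 4 hold a single Slc11a2KD APP/PS1 sample, 0004, so counts under that setting for APP/PS1 animals and the interaction rest on 1 sample assumed to vary like the other groups. Hif1a and Egln3 kept their direction and their call between APP/PS1 and WT, in controls and in Slc11a2KD animals, under every alternative and with each sample left out. The cause of the changes below was not tested. For APP/PS1 against WT in controls, the 1965 genes passing became 918 with an absolute log2 fold change over 1 required, 3421 with limma voom, 1282 without 0012 and 0015, 3241 with only the compared groups fitted, 655 with the endothelial term and 3674 with the long-gene term. For APP/PS1 against WT in controls, the 6 members passing became 3 without 0012 and 0015 and 2 with the endothelial term. For APP/PS1 against WT in Slc11a2KD animals, the 3034 genes passing became 1105 with an absolute log2 fold change over 1 required, 1041 with only the compared groups fitted, 1773 with a term for libraries 18 to 23, 470 with the endothelial term, 327 within libraries 18 to 23 and 1823 with the long-gene term. For APP/PS1 against WT in Slc11a2KD animals, the 5 members passing became 3 with only the compared groups fitted, 3 with a term for libraries 18 to 23, 2 with the endothelial term, 2 within libraries 18 to 23 and 3 with the long-gene term. For Slc11a2KD against control in WT, the 0 genes passing became 10 with DESeq2, 1 with limma voom, 19 with Slc11a2KD libraries 18 to 23 only and 2 with Slc11a2KD libraries 1 to 4 only. For Slc11a2KD against control in APP/PS1, the 0 genes passing became 580 with DESeq2, 2 with limma voom, 4020 with Slc11a2KD libraries 18 to 23 only and 1 with Slc11a2KD libraries 1 to 4 only. For Slc11a2KD against control in APP/PS1, the 0 members passing became 2 with DESeq2 and 4 with Slc11a2KD libraries 18 to 23 only. For the interaction, the 0 genes passing became 25 with DESeq2, 1 with limma voom, 1 with Slc11a2KD libraries 18 to 23 only and 1 with Slc11a2KD libraries 1 to 4 only. Leaving out 1 sample at a time, values for APP/PS1 against WT in Slc11a2KD animals ran from 1977 to 4781 for genes passing. Leaving out 1 sample at a time, values for Slc11a2KD against control in WT ran from 0 to 1 for genes passing, -0.0254 to 0.16 for Arnt, -0.0159 to 0.15 for Egln1, -0.0831 to 0.0494 for Egln2, -0.38 to 0.18 for Egln3, -0.0991 to 0.10 for Vhl, -0.049 to 0.0833 for Hif1an, -0.16 to 0.99 for Vegfa and -0.12 to 0.15 for Bnip3. Leaving out 1 sample at a time, values for Slc11a2KD against control in APP/PS1 ran from 0 to 3069 for genes passing, 0 to 4 for members passing, -0.0031 to 0.0424 for Egln2 and -0.0648 to 0.13 for Egln3. Leaving out 1 sample at a time, values for the interaction ran from 0 to 1 for genes passing, -0.25 to 0.22 for Epas1, -0.0162 to 0.11 for Egln2 and -0.17 to 0.39 for Egln3. Log2 differences of members that had not passed took the other sign for APP/PS1 against WT in Slc11a2KD animals: Vhl -0.0939 with a term for libraries 18 to 23, Vhl -0.0093 with the endothelial term, Vhl -0.13 within libraries 18 to 23, Vhl -0.19 with the long-gene term. Log2 differences of members that had not passed took the other sign for Slc11a2KD against control in WT: Arnt -0.32 and Egln2 0.11 with Slc11a2KD libraries 18 to 23 only, Egln1 -0.0342, Egln3 0.15, Vhl -0.22, Hif1an -0.13, Vegfa -0.0851 and Bnip3 -0.21 with Slc11a2KD libraries 1 to 4 only, Egln3 0.0328, Vhl -0.20 and Bnip3 -0.24 with a term for libraries 18 to 23, Vhl -0.0935, Hif1an -0.0619 and Bnip3 -0.0891 with limma voom, Vhl -0.0156 with the choroid plexus term, Vhl -0.0355 and Bnip3 -0.0387 with the long-gene term, Vegfa -0.0048 and Bnip3 -0.0071 with the endothelial term, Bnip3 -0.0386 without 0012 and 0015. Log2 differences of members that had not passed took the other sign for Slc11a2KD against control in APP/PS1: Epas1 0.32, Arnt 0.16, Egln2 -0.0749, Vhl -0.0197 and Bnip3 -0.0451 with a term for libraries 18 to 23, Arnt 0.20, Egln2 -0.0088, Egln3 -0.26, Vhl -0.0035, Hif1an 0.19, Vegfa 0.0537 and Bnip3 -0.18 with Slc11a2KD libraries 1 to 4 only, Arnt 0.0315 and Egln2 -0.0061 with the long-gene term, Egln2 -0.0074 with the choroid plexus term, Egln3 -0.0018 with only the compared groups fitted. Log2 differences of members that had not passed took the other sign for the interaction: Epas1 0.0265 with DESeq2, Epas1 0.0266 with DESeq2 size factors, Epas1 0.0644 with upper-quartile scaling, Epas1 0.0193 with at least 10 counts in every sample, Epas1 0.0368 with 0010 kept, Epas1 0.52 and Egln2 -0.0026 with a term for libraries 18 to 23, Epas1 0.0887 with the choroid plexus term, Epas1 0.0935 with the endothelial term, Epas1 0.99 and Egln2 -0.10 with Slc11a2KD libraries 18 to 23 only, Epas1 0.27 with the long-gene term, Egln3 -0.40, Hif1an 0.32 and Vegfa 0.14 with Slc11a2KD libraries 1 to 4 only.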
